A study of Macaca mulatta with 45 samples.

Results

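Axon guidance genes were measured in 3 brain regions of rhesus macaques long after irradiation of the brain or the whole body. The set comprised the semaphorins and their plexin and neuropilin receptors, the ephrins and Eph receptors, the netrins and netrin-Gs with the receptors DCC and UNC5, and the slits with their Robo receptors. Members were chosen by gene symbol alone, and 64 of the 30246 genes in the count table matched. They were 7 secreted class 3 semaphorins, 13 membrane-bound semaphorins, 9 plexins, 2 neuropilins, 5 ephrins, 13 Eph receptors, 1 netrin (NTN4), 2 netrin-Gs, 5 netrin receptors, 3 slits and 4 Robo receptors. EFNA2, EFNB3, EPHA1, NTN1, NTN3 and NTN5 were not analysed here.

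Total RNA came from white matter of the centrum semiovale, from the hippocampus and from the dorsolateral prefrontal cortex of 15 animals, 5 in each of 3 treatment groups, giving 45 libraries. The fWBI animals had fractionated whole-brain irradiation, 40 Gy in 8 fractions of 5 Gy, and were necropsied 12 months later. The TBI animals had total body irradiation, a single dose of 6.75, 7.2 or 8.05 Gy, 6 to 9 years before necropsy. The control animals were not unirradiated: they had 10 Gy to the thorax, with a brain dose labelled as 0.1 Gy. The fWBI and TBI groups therefore differ in dose, fractionation, irradiated volume and time, which cannot be told apart, and the labels give no ages.

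Semaphorins, ephrins, netrins and slits are cues that attract or repel growing axons during development. In the adult brain many of the same proteins are found at synapses, on blood vessels and on glia, where class 3 semaphorins and netrin are known to steer oligodendrocyte precursors. Class 3 semaphorins bind neuropilins, which signal through plexins, whereas most membrane-bound semaphorins bind plexins directly. Ephrins and Eph receptors both sit in membranes, so their signalling needs contact between cells. DCC mediates attraction and UNC5 receptors repulsion by netrin, and Robo receptors bind slits.

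The libraries held 6625435 to 12541507 assigned reads. Values are CPM, counts relative to a library's total after TMM scaling, errors are SD over the 5 libraries of a group, and log2 fold changes carry a standard error (SE). Tests were edgeR's quasi-likelihood tests over all genes, with an adjusted p under 0.05 (Benjamini-Hochberg) taken as a call. In control white matter 2 of the 5 libraries stood apart. The summed CPM of 10 pan-neuronal markers was 7128 in control replicate 1 and 3414 in control replicate 3, but 398.6 to 561.6 in the other 3 control libraries, 329.6 to 755.8 after fWBI and 356.5 to 758.7 after TBI. Control prefrontal cortex had 7726 to 9835. The white matter comparisons against control are therefore given with and without those 2 libraries.

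White matter after fWBI held more RNA of several receptors than control white matter, among them NRP2 and 3 plexins, and less of EPHB1, NTNG1, UNC5D and ROBO3. Of 60 members tested, 7 were higher and 13 lower, or 33.3%, against 16.7% of all genes tested (8.8% higher and 7.86% lower). The members' median log2 fold change was −0.17, and that of all genes was −0.03. Among the classes, 3 of 9 plexins were higher and 1 lower, and 1 of 10 Eph receptors was higher and 5 lower, of which EPHB1 alone was called without control replicates 1 and 3. Without control replicates 1 and 3, 7 members were higher and 5 lower, or 20% of 60, against 10.8% of all genes (7.23% higher and 3.54% lower). Of the 7 members higher with all controls, 6 were again called higher, and of the 13 lower, 5 were again called lower. Leaving out single libraries gave 13 to 24 calls, with 13 without control replicate 1, and 13 of the 20 members kept the call each time. With all controls, the 5 libraries of each group did not overlap for 5 members upward and 9 downward of 62 with a mean of at least 10 counts, against 6.38% and 4.03% of all such genes. In bulk tissue, fewer cells of a type and less RNA per cell cannot be told apart.

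NRP2, a co-receptor for class 3 semaphorins and for vascular endothelial growth factors, had the largest rise. It had 58.5, 101, 70.5, 80.3 and 54.7 CPM in the 5 fWBI libraries, against 25.5, 33.9, 23.0, 23.9 and 23.2 CPM in controls. All fWBI libraries lay above all controls, and the mean was 2.82 times as high (log2 fold change 1.5 ± 0.18 SE, adjusted p = 4e-05, edgeR). The other neuropilin, NRP1, had a log2 fold change of −0.03 ± 0.29 (adjusted p = 0.97). PLXNC1, the receptor of SEMA7A, had 234, 276, 228, 312 and 127 CPM after fWBI, against 118, 87.4, 96.0, 95.4 and 105 CPM in controls. These groups did not overlap either, although fWBI replicate 5 came close to the highest control. The log2 fold change was 1.23 ± 0.18 (adjusted p = 0.00025, edgeR), while SEMA7A itself, at −0.34 ± 0.13, was not called (adjusted p = 0.088).

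PLXND1, the receptor of SEMA3E and best known from blood vessels, had 119.5, 150.1, 114, 114 and 60.3 CPM after fWBI, against 32.7, 81.6, 46.5, 53.3 and 59.9 CPM in controls. PLXNB2, a receptor for class 4 semaphorins, had 130.2, 149.9, 144, 116 and 114 CPM after fWBI, against 62.8, 104, 66.4, 91.4 and 72.6 CPM in controls. For PLXNB2 the groups did not overlap, and for PLXND1 the lowest fWBI library lay below the highest control. The log2 fold changes were 1.03 ± 0.23 for PLXND1 (adjusted p = 0.006) and 0.72 ± 0.14 for PLXNB2 (adjusted p = 0.0022). SEMA4A, a membrane-bound semaphorin also known from immune cells, had 34.2, 39.9, 26.0, 52.0 and 13.9 CPM after fWBI, against 19.7, 18.2, 14.0, 14.8 and 9.93 CPM in controls. It was above the control mean in 4 of 5 fWBI libraries, with replicate 5 below it, and had a log2 fold change of 1.11 ± 0.27 (adjusted p = 0.011).

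Ephrin and Eph genes moved in both directions. EFNB1, a membrane-spanning ephrin, had 17.2, 25.9, 23.1, 17.4 and 35.6 CPM after fWBI, against 10.6, 9.66, 10.5, 11.4 and 13.4 CPM in controls. Its groups did not overlap (log2 fold change 1.11 ± 0.19, adjusted p = 0.00066). EPHA2, a receptor for A-type ephrins known mainly from epithelia and vessels, was low in all groups, with 3.84, 4.51, 4.05, 3.77 and 4.48 CPM after fWBI and 1.86, 3.22, 2.09, 2.70 and 2.27 CPM in controls. Its log2 fold change of 0.77 ± 0.22 (adjusted p = 0.023) became 0.62 ± 0.24 without control replicates 1 and 3 and was no longer called (adjusted p = 0.14). It also missed the threshold without control replicate 1, control replicate 3 or fWBI replicate 2 alone (0.71 to 0.89 over all 10 such fits). EPHB1, a receptor for B-type ephrins, showed the firmest fall. It had 2.81, 2.46, 4.25, 3.38 and 4.06 CPM after fWBI, against 15.7, 11.8, 15.5, 10.2 and 10.9 CPM in controls. Every fWBI library was below every control, and the log2 fold change was −1.91 ± 0.24 (adjusted p = 6.7e-05), or −1.66 ± 0.26 without control replicates 1 and 3 (adjusted p = 0.00075).

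Another 4 members were called lower with and without those 2 control libraries. NTNG1, a netrin-G anchored to the presynaptic membrane that does not bind DCC, had 6.83, 7.48, 5.67, 4.86 and 6.94 CPM after fWBI, against 13.7, 11.8, 15.2, 13.1 and 13.4 CPM in controls. UNC5D, a netrin receptor of the repulsive family, had 12.3, 12.1, 11.3, 17.4 and 7.78 CPM after fWBI, against 38.9, 19.1, 31.8, 26.2 and 19.2 CPM in controls. ROBO3, the divergent Robo known for axon crossing at the midline, had 5.52, 4.92, 4.05, 3.47 and 7.19 CPM after fWBI, against 8.54, 9.10, 8.75, 9.20 and 8.85 CPM in controls. In these 3 genes all fWBI libraries lay below all controls. Their log2 fold changes were −1.07 ± 0.18 for NTNG1 (adjusted p = 0.00078), −1.15 ± 0.23 for UNC5D (adjusted p = 0.0025) and −0.81 ± 0.21 for ROBO3 (adjusted p = 0.014). Without control replicates 1 and 3 they were −0.98, −0.80 and −0.82. SEMA6D, a transmembrane semaphorin, had 174, 135, 205, 141 and 188 CPM after fWBI, against 177, 281, 239, 261 and 272 CPM in controls. Its groups overlapped through control replicate 1, the lowest control, and its log2 fold change of −0.54 ± 0.14 (adjusted p = 0.013) became −0.67 ± 0.13 without replicates 1 and 3.

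**Figure D1:**
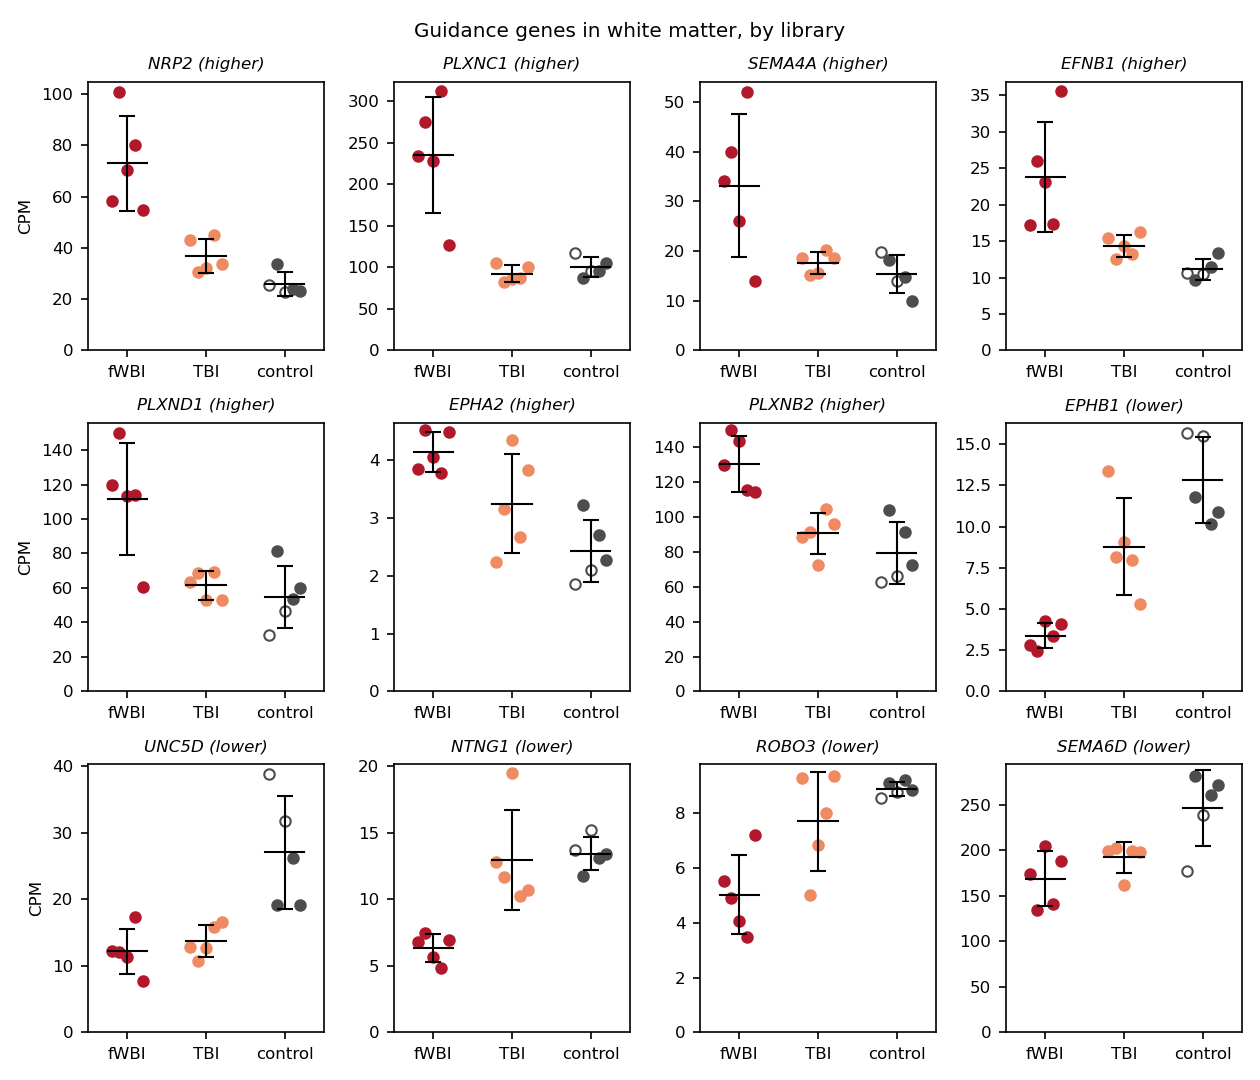
CPM of 12 guidance genes in white matter, each point 1 library of the fWBI, TBI or control group, with the mean (horizontal line) and SD (n = 5); open circles are control replicates 1 and 3. The 7 genes called higher after fWBI come first, and the 5 genes called lower with and without those 2 control libraries follow; of those 5, EPHB1 and NTNG1 had no fWBI library within the range of either other group.

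The other 8 members called lower lost the call when control replicates 1 and 3 were left out. EPHB6, an Eph receptor without kinase activity, had 5.71, 5.13, 5.67, 9.13 and 11.3 CPM after fWBI, against 136, 5.22, 63.5, 10.2 and 9.39 CPM in controls. Only control replicates 1 and 3 exceeded the fWBI range, and the log2 fold change of −2.61 ± 0.73 became −0.14 ± 0.32. EPHA5, an Eph receptor of neurons, had 19.7, 9.84, 17.7, 24.7 and 24.0 CPM after fWBI, against 224, 23.5, 116, 30.4 and 21.3 CPM in controls. EPHA4, which binds ephrins of both types, had 27.0, 29.3, 28.4, 31.6 and 24.9 CPM after fWBI, against 176, 44.2, 117, 32.5 and 16.1 CPM in controls. The secreted ligand SLIT3 had 2.71, 0.718, 2.02, 2.58 and 1.78 CPM after fWBI, against 21.2, 2.11, 12.5, 2.33 and 2.81 CPM in controls. In all of these the 2 highest controls were replicates 1 and 3. Their log2 fold changes without those libraries were −0.36 ± 0.27 for EPHA5, −0.11 ± 0.26 for EPHA4 and −0.28 ± 0.40 for SLIT3, in place of −2.12 ± 0.57, −1.46 ± 0.48 and −2.07 ± 0.62. Single libraries also ended calls: control replicate 1, control replicate 3 and fWBI replicates 1 to 3 for EPHB6 (−2.91 to −1.55 over 10 such fits), control replicate 1 and fWBI replicate 2 for EPHA5 (−2.38 to −1.29), control replicates 1 and 3 and fWBI replicates 1 to 5 for EPHA4 (−1.73 to −0.87), and control replicates 1 and 3 and fWBI replicates 2 to 5 for SLIT3 (−2.33 to −1.31).

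SEMA6B, PLXNA4, EPHB3 and SEMA3A also lost the call, but here no fWBI library lay within the control range. SEMA6B had 1.03, 0.615, 2.33, 2.38 and 2.45 CPM after fWBI, against 23.0, 2.66, 9.85, 3.31 and 2.91 CPM in controls. PLXNA4, a receptor for class 6 semaphorins and a partner of neuropilins, had 25.4, 28.7, 21.7, 36.2 and 16.2 CPM after fWBI, against 108, 39.2, 85.8, 42.6 and 38.4 CPM in controls. Both were highest in control replicates 1 and 3. EPHB3, a receptor for B-type ephrins, had 1.5, 2.67, 2.83, 1.79 and 1.69 CPM after fWBI, against 5.80, 5.33, 7.26, 3.80 and 3.99 CPM in controls. SEMA3A, a secreted repellent, had 9.73, 9.53, 9.92, 9.63 and 6.09 CPM after fWBI, against 23.0, 13.1, 15.7, 10.2 and 10.5 CPM in controls. The log2 fold changes with all controls were −2.25 ± 0.59 for SEMA6B, −1.30 ± 0.30 for PLXNA4, −1.32 ± 0.30 for EPHB3 and −0.69 ± 0.22 for SEMA3A. Without control replicates 1 and 3 they were −0.72 ± 0.40 (adjusted p = 0.31), −0.63 ± 0.21 (adjusted p = 0.072), −1.04 ± 0.33 (adjusted p = 0.06) and −0.31 ± 0.17 (adjusted p = 0.33). The call of SEMA6B was also lost without control replicate 1 alone (−2.48 to −1.38 over 10 such fits), and that of SEMA3A without control replicate 1, control replicate 3 or any fWBI library (−0.80 to −0.44).

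**Figure D2:**
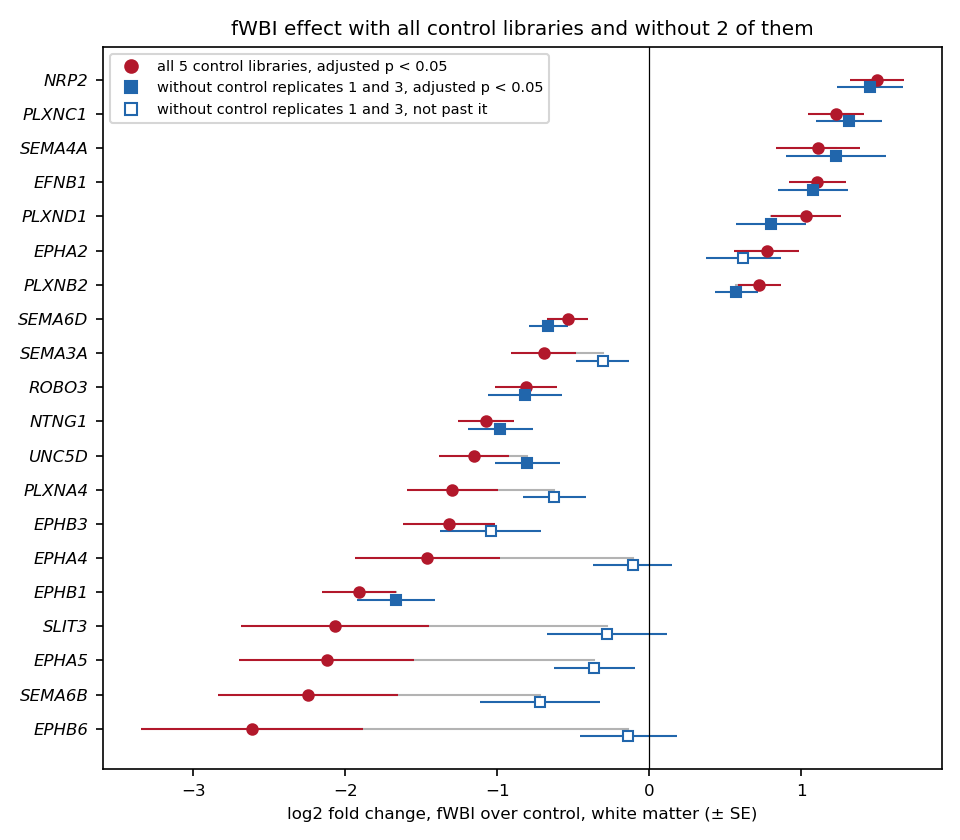
Log2 fold change of fWBI over control in white matter, with its SE, for the 20 members called with all 5 control libraries (circles) and for the same members without control replicates 1 and 3 (squares, filled where still called). Among the risers, control replicates 1 and 3 were the lowest controls for PLXNB2, PLXND1 and EPHA2, and EPHA2 lost the call. EPHB6, EPHA5, EPHA4 and SLIT3 moved to between −0.36 and −0.11.

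Control replicates 1 and 3 were the 2 highest of the 5 controls for 11 of the 13 members called lower, for 27 of the 60 members tested (45%) and for 3617 of 15028 genes (24.1%). They were the 2 lowest for PLXNB2, PLXND1 and EPHA2 among the 7 members called higher. Other markers also differed between the groups in white matter. The summed CPM of 5 microglia and macrophage markers was 718.4 to 948.1 after fWBI, 433 to 596.6 after TBI and 250.3 to 456.2 in controls, and 3 of the 5 rose (CD68, CD74 and PTPRC) while P2RY12 fell. The sum of 8 oligodendrocyte precursor markers was 718.1 to 953.1 CPM after fWBI, 1868 to 2263 after TBI and 1312 to 2482 in controls, and all 8 fell after fWBI. The 6 endothelial markers summed to 203.1 to 318.5 CPM after fWBI, 177.9 to 323.7 after TBI and 165.9 to 257.9 in controls, with PECAM1 and VWF higher and FLT1 lower after fWBI. The 6 astrocyte markers summed to 6825 to 13387 CPM after fWBI, 6696 to 7804 after TBI and 5617 to 6560 in controls, with GFAP (1.33) and GJA1 (0.54) higher and SLC1A2 (−2.25) lower after fWBI. The 2 choroid plexus and ependyma markers measured, FOXJ1 and FOLR1, summed to 9.63 to 24.6 CPM after fWBI, 2.22 to 2.76 after TBI and 1.96 to 5.07 in controls, and FOXJ1 was higher after fWBI (2.82). The 4 fibroblast and meninges markers summed to 56.0 to 152.9 CPM after fWBI, 44.8 to 124.5 after TBI and 44.1 to 100.5 in controls, with COL3A1 higher (1.27). The 6 mature oligodendrocyte markers summed to 21232 to 39008 CPM after fWBI, 38826 to 53643 after TBI and 25301 to 51802 in controls, and edgeR called none of them after fWBI (2 had an unadjusted p under 0.05). FOLR1 was at 0 in 6 of the 45 libraries and the other markers in none. The part of these cell types in the changes of guidance genes was not tested.

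The comparison of fWBI with TBI set no control library against either group. Its fit did include the control white matter libraries, which shared in the scaling, the filter and the estimate of spread. Fitted on the 2 groups alone, the count of members called stayed within 1.5 times. Of the 60 members, 6 were higher and 2 lower after fWBI than after TBI, or 13.3%, against 7.33% of all genes (4.8% higher and 2.53% lower). The higher ones were PLXNC1, NRP2, PLXND1, EFNB1 and PLXNB2, which were also called against controls, and PLXNA1, a plexin that partners with neuropilins. PLXNC1 had 106, 82.7, 85.8, 87.2 and 101 CPM after TBI (log2 fold change of fWBI over TBI 1.35 ± 0.18, adjusted p = 0.00026). NRP2 had 43.1, 30.8, 32.3, 45.2 and 33.6 CPM after TBI (0.99 ± 0.18, adjusted p = 0.0022). For both genes every fWBI library was above every TBI library, as they were for 6 of 59 members in all (5.05% of all genes), and 2 members lay wholly below (3.65%). PLXND1 (0.86 ± 0.23, adjusted p = 0.03), EFNB1 (0.74 ± 0.18, adjusted p = 0.02) and PLXNB2 (0.54 ± 0.14, adjusted p = 0.029) were also higher. The call of PLXND1 was lost without TBI replicate 1, 3 or 5 or fWBI replicate 1, 2, 3 or 4 (0.74 to 1.02 over 10 such fits), that of EFNB1 without TBI replicate 2 or fWBI replicate 2 (0.55 to 0.84), and that of PLXNB2 without TBI replicate 1, 2 or 3 or fWBI replicate 2 or 3 (0.47 to 0.59). Without fWBI replicate 2 there were 5 calls in all.

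PLXNA1 had 28.2, 48.2, 34.0, 54.8 and 27.8 CPM after fWBI, 17.2, 18.5, 11.7, 18.4 and 22.7 CPM after TBI, and 49.4, 23.1, 32.5, 23.2 and 21.7 CPM in controls. The fWBI and TBI groups did not overlap (log2 fold change 1.13 ± 0.26, adjusted p = 0.014, edgeR). Against controls PLXNA1 had a log2 fold change of 0.36 ± 0.26 and was called only without control replicates 1 and 3, which were its 2 highest controls (0.79 ± 0.24, adjusted p = 0.046). The 2 members lower after fWBI than after TBI were EPHB1, with 13.4, 8.17, 9.05, 8.00 and 5.31 CPM after TBI (−1.36 ± 0.24, adjusted p = 0.0022), and NTNG1, with 12.8, 11.7, 19.5, 10.3 and 10.7 CPM after TBI (−1.03 ± 0.18, adjusted p = 0.0023). Again no fWBI library reached the TBI range.

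After TBI no member was called against control white matter by edgeR, where 0.0722% of all genes were called. At an unadjusted p under 0.05 there were 23 of 60 members, against 2749 of all 15235 genes tested. DESeq2 called 11 members, all lower, and its calls over all genes were not counted. The smallest p-values belonged to UNC5D (−0.98 ± 0.23, adjusted p = 0.12), PLXNA4 (−1.26 ± 0.30, adjusted p = 0.12) and NTNG2 (−1.16 ± 0.29, adjusted p = 0.14). UNC5D had 12.8, 10.7, 12.7, 15.9 and 16.7 CPM after TBI, all below the lowest control, as were all TBI libraries for 5 of 61 members (1.06% of all genes). These tests use the same control libraries as those of fWBI. Without control replicates 1 and 3 edgeR again called no member, as for all genes (0% of 15550). There 9 members had an unadjusted p under 0.05, and the number of all genes under it is not given here. DESeq2 was not run without those libraries.

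In the hippocampus none of 62 members was called after fWBI, where 0.723% of all genes were. Unadjusted p-values under 0.05 were found for 5 members, against 1710 of all 15357 genes tested, and DESeq2 called no member. The smallest were those of SEMA6B (−0.26 ± 0.09, adjusted p = 0.27), EPHB3 (−0.62 ± 0.23, adjusted p = 0.28) and EPHA2 (0.63 ± 0.27, adjusted p = 0.38). After TBI none was called either, as for all genes (0%), and DESeq2 called none. An unadjusted p under 0.05 was found for 3 members, against 1634 of all 15357 genes. These 3 were PLXND1 (−0.37 ± 0.14, adjusted p = 0.41), SEMA6D (−0.28 ± 0.11, adjusted p = 0.42) and EPHB3 (−0.50 ± 0.22, adjusted p = 0.45).

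Between fWBI and TBI hippocampus edgeR called no member, against 0.339% of all genes. Unadjusted p-values under 0.05 were found for 7 members, against 1103 of all 15357 genes. PLXND1 came closest, with 34.6, 29.5, 30.9, 26.4 and 30.7 CPM after fWBI and 20.2, 20.4, 16.0, 21.6 and 17.3 CPM after TBI. Those groups did not overlap, as for 1.19% of all genes in that direction, and the log2 fold change was 0.67 ± 0.14 (adjusted p = 0.056, edgeR). DESeq2 called 1 member, and its calls over all genes were not counted. SEMA3F (1.03 ± 0.31, adjusted p = 0.34) and EPHA2 (0.77 ± 0.26, adjusted p = 0.5) followed.

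In the prefrontal cortex 1 of 63 members was called after fWBI, or 1.59%, against 1.15% of all genes. It was NTNG2, the second netrin-G, a membrane-anchored ligand at synapses. NTNG2 had 20.4, 25.4, 21.6, 19.1 and 21.9 CPM after fWBI and 19.8, 18.1, 27.8, 19.4 and 19.9 CPM after TBI, against 53.4, 33.2, 36.3, 28.3 and 31.9 CPM in controls. Neither irradiated group reached the lowest control, which held for 1.45% of all genes after fWBI and 1.34% after TBI. The log2 fold change after fWBI was −0.74 ± 0.16 (adjusted p = 0.034, edgeR), but it missed the threshold when any single fWBI library or control replicate 3 was left out, with values from −0.82 to −0.57 over the 10 such fits. After TBI it was −0.79 ± 0.16 and was not called by edgeR (adjusted p = 0.096). DESeq2 called 1 member after TBI, and so did edgeR with the animal number as a replicate block. That block pairs different animals, and calls over all genes were not counted in either fit. Neither call is therefore read as support for a fall of NTNG2. In prefrontal cortex 4 fibroblast and meninges markers summed to 170.3 to 448.8 CPM after fWBI, 87.6 to 171.6 after TBI and 54.0 to 125 in controls. After fWBI edgeR also called 5 of 8 oligodendrocyte precursor markers and P2RY12 lower, and GFAP, AQP4 and CD74 higher. The part of these cell types in the NTNG2 result was not tested.

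SEMA3E (−1.34 ± 0.39, adjusted p = 0.12) and SEMA3B (0.40 ± 0.12, adjusted p = 0.13), both secreted semaphorins, came next in prefrontal cortex after fWBI. After TBI 0% of all genes were called, and 8 members had an unadjusted p under 0.05, against 1819 of all 15531 genes. There NTNG2 was followed by NRP1 (−0.40 ± 0.13, adjusted p = 0.23) and SEMA3E (−1.02 ± 0.38, adjusted p = 0.32). Between fWBI and TBI prefrontal cortex no member was called by edgeR, against 0.29% of all genes, or by DESeq2. An unadjusted p under 0.05 was found for 1 member, against 752 of all 15531 genes. The smallest p-values there were those of EPHA4 (−0.20 ± 0.10), ROBO3 (−0.34 ± 0.19) and NRP1 (0.22 ± 0.13), each with an adjusted p of 1.

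**Figure D3:**
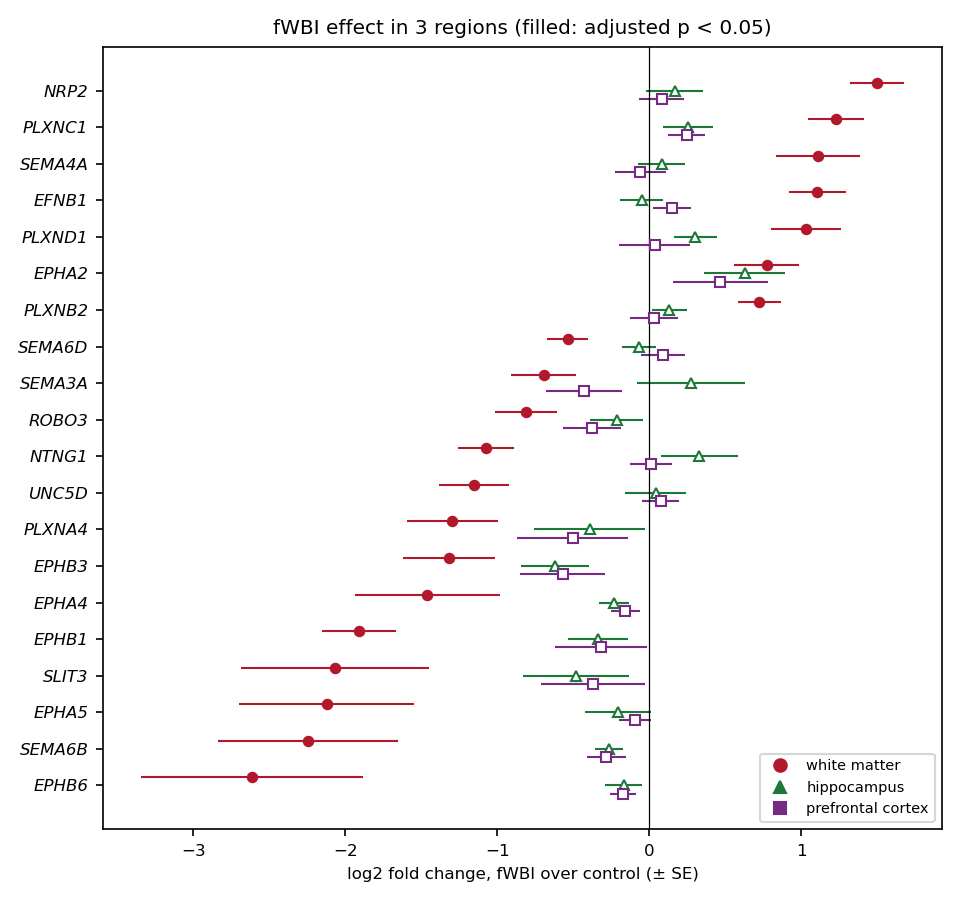
Log2 fold change of fWBI over control, with its SE, for the 20 members called in white matter, shown for white matter, hippocampus and prefrontal cortex; filled symbols are called. In hippocampus and prefrontal cortex none of these 20 was called, and EPHA2, at 0.77, 0.63 and 0.47 in the 3 regions, lay closest together among the risers.

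The fWBI effect itself differed between white matter and prefrontal cortex for 13 of 63 members (20.6%, against 9.96% of all genes), 5 upward and 8 downward (4.56% and 5.4% of all genes). The largest upward differences of log2 fold changes were those of NRP2 (1.41 ± 0.27, adjusted p = 0.0008, edgeR), SEMA4A (1.09 ± 0.31), PLXNC1 (0.94 ± 0.23), EFNB1 (0.93 ± 0.17) and PLXNB2 (0.71 ± 0.21). Downward differences were found for EPHB1 (−1.70 ± 0.29), SEMA6B (−1.67 ± 0.47), EPHA5 (−1.54 ± 0.45) and UNC5D (−1.21 ± 0.28). EFNA5 (−1.99 ± 0.65) and EPHA6 (−1.69 ± 0.52) count among the 8 but were too low to test in white matter and entered the fit of all regions through grey matter, so their values support no difference of the fWBI effect. Between white matter and hippocampus 10 members differed (15.9%, against 8.96% of all genes), 4 upward and 6 downward (4.13% and 4.83% of all genes). NRP2 (1.35 ± 0.26), EFNB1 (1.12 ± 0.17), SEMA4A (0.99 ± 0.31) and PLXNC1 (0.94 ± 0.23) were upward. SEMA6B (−1.72 ± 0.47), EPHB1 (−1.59 ± 0.29), EPHA5 (−1.47 ± 0.45), NTNG1 (−1.34 ± 0.23) and UNC5D (−1.18 ± 0.28) were downward, as was EFNA5 (−2.72 ± 0.70), to which the same limit applies.

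Without control white matter replicates 1 and 3, 7 members differed between white matter and prefrontal cortex (6.21% of all genes) and 6 between white matter and hippocampus (5.44%). NRP2, PLXNC1, EFNB1, EPHB1, NTNG1 and SEMA6D were called in both. SEMA3G was the other one against prefrontal cortex (−1.64 ± 0.48, adjusted p = 0.036). EPHA6 was 0.14 ± 0.43 and EFNA5 was −0.21 ± 0.62 in that fit. Leaving out 1 animal gave 6 to 16 calls against prefrontal cortex, with 8 without control 1, 7 without control 3 and 6 without fWBI replicate 2, and 6 to 15 against hippocampus, with 6 without control 3. NRP2, PLXNC1, EFNB1, EPHB1, NTNG1 and UNC5D kept the call in each of the 10 such fits against hippocampus, whereas SEMA4A lost it in 6, EPHA5 in 5, SEMA6B in 4 and EFNA5 in 2. Against prefrontal cortex EFNA5 lost the call in 7 of the 10, EPHA6 and PLXNB2 in 6, SEMA4A and EPHA5 in 4 and SEMA6B in 3. Control 3 was among the animals whose removal ended each of these calls, in both comparisons. Between hippocampus and prefrontal cortex the fWBI effect differed for no member by edgeR (0% of all genes) or DESeq2. An unadjusted p under 0.05 was found for 1 member, against 299 of all 16614 genes. The TBI effect differed for no member between white matter and prefrontal cortex (0.0301% of all genes, 11 unadjusted, none by DESeq2), between white matter and hippocampus (0.00602%, 13 unadjusted, 2 by DESeq2) or between hippocampus and prefrontal cortex (0%, 4 unadjusted, none by DESeq2). At an unadjusted p under 0.05 there were 2142, 2399 and 434 of all 16614 genes, in the same order. Without control white matter replicates 1 and 3 edgeR again called no member for the TBI effect in white matter minus prefrontal cortex (0.00589% of all genes) or minus hippocampus (0%), with 4 unadjusted p-values under 0.05 each.

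In control animals white matter differed from prefrontal cortex and from hippocampus in more members than any treatment did from control. In white matter 17 of 63 members were higher and 29 lower than in prefrontal cortex of the same 5 animals, or 73%, against 60.9% of all genes (29.5% higher and 31.4% lower). The netrin receptor UNC5B had the largest rise, with 34.3, 93.1, 68.3, 73.8 and 74.1 CPM in white matter, against 17.8, 5.61, 10.3, 5.25 and 4.72 CPM in prefrontal cortex. Every white matter library was above every cortical one (log2 fold change 3.11 ± 0.44, adjusted p = 0.00016, edgeR). UNC5A, of the same receptor family, had 42.4, 3.55, 33.8, 5.15 and 3.78 CPM in white matter, against 147, 60.1, 103.6, 89.3 and 107 CPM in prefrontal cortex. It was lower throughout (−2.89 ± 0.57), with control white matter replicates 1 and 3 nearest to the cortical range.

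Of the 9 plexins, 2 were higher in white matter and 4 lower, or 66.7%, against 60.9% of all genes (29.5% higher and 31.4% lower). The higher ones were PLXNB3 and PLXNB1, while PLXNB2, at 0.44 ± 0.19, was not called (adjusted p = 0.064). PLXNA2 (−1.48 ± 0.32), PLXNA1 (−1.48 ± 0.28), PLXNC1 (−1.07 ± 0.15) and PLXNA4 (−0.94 ± 0.31) were the lower ones. PLXNB3 (2.67 ± 0.46), SEMA5A, a ligand of it (2.05 ± 0.32), PLXNB1 (2.17 ± 0.31) and SEMA4D, the ligand of PLXNB1 (1.96 ± 0.27), were all called. So were SEMA6A (2.62 ± 0.47), SEMA3E (2.44 ± 0.39) and EFNA1, an A-type ephrin (2.37 ± 0.27). By class, 7 of 13 membrane-bound semaphorins were higher and 4 lower, and all 3 slits and both netrin-Gs were lower. Of 12 Eph receptors, 8 were lower and none higher; 9 had an unadjusted p under 0.05. EPHA6 was at 3.94, 0.444, 3.78, 0.368 and 0.54 CPM in white matter, against 25.0, 13.0, 21.0, 22.3 and 28.1 CPM in prefrontal cortex (−3.66 ± 0.45). The other large falls were EPHA10 (−3.49 ± 0.61), EPHA3 (−3.29 ± 0.35), EPHB6 (−3.0 ± 0.70), SEMA6B (−2.50 ± 0.42), EPHA4 (−2.46 ± 0.49) and EFNA5 (−2.43 ± 0.52). Without control white matter replicates 1 and 3 the counts were 20 higher and 29 lower (62.6% of all genes), among them all 46 members called with them. UNC5A was then at −4.47, EPHB6 at −4.76 and EFNA5 at −4.19. EFNA5 and EPHA6 were too low in white matter for a test of treatment, so the sizes of their falls rest on few reads. EPHA10 had 0, 0.123 and 0 CPM in the 3 remaining white matter libraries, too few reads for a fold change.

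The hippocampus differed from prefrontal cortex in 18 of 63 members, 9 higher and 9 lower, or 28.6%, against 15% of all genes (7.68% higher and 7.29% lower). Both neuropilins were higher. NRP1 had 178, 152, 155, 209 and 230.5 CPM in hippocampus, against 43.1, 41.4, 58.2, 39.6 and 48.1 CPM in prefrontal cortex (2.03 ± 0.27, adjusted p = 0.00068, edgeR). NRP2 had 55.6, 48.5, 44.5, 67.0 and 61.2 CPM in hippocampus, against 19.2, 16.1, 15.6, 15.3 and 16.3 CPM (1.74 ± 0.15). Neither gene's regions overlapped. The class 3 ligands SEMA3C (−2.14 ± 0.29) and SEMA3A (−1.63 ± 0.37) were lower in hippocampus, and no class 3 semaphorin was called higher by edgeR, with 5 of 7 having an unadjusted p under 0.05, although SEMA3E (1.80, adjusted p = 6.1e-05) and SEMA3B (0.47, adjusted p = 0.0011) were called higher in the TBI animals. SEMA5B (1.65 ± 0.17), EPHA6 (1.56 ± 0.36), SEMA5A (1.28 ± 0.31), UNC5C (1.04 ± 0.26), NTNG2 (0.99 ± 0.17) and DCC (0.82 ± 0.20) were the other largest rises. EFNA5 (−2.44 ± 0.53), EPHA3 (−1.94 ± 0.32), EFNB2 (−1.13 ± 0.29), SEMA6C (−1.02 ± 0.20), EPHB3 (−0.99 ± 0.24) and PLXNC1 (−0.73 ± 0.15) were the other largest falls. Leaving out 1 animal gave 12 to 20 calls, and ended the call of EPHB3 without control 1, 3, 4 or 5 (−1.12 to −0.84), of DCC (0.68 to 1.02), UNC5C (0.87 to 1.30) and SEMA5A (1.04 to 1.47) without control 3, 4 or 5, and of EFNB2 without control 2, 3 or 5 (−1.24 to −1.01). It also ended that of SEMA3A without control 2 or 4 (−1.92 to −1.24), and of EPHA6 (1.51 to 1.64) and PLXNC1 (−0.85 to −0.63) without control 2.

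White matter differed from hippocampus in 17 members upward and 25 downward, or 66.7%, against 55.9% of all genes (28.1% higher and 27.8% lower). UNC5B (2.77 ± 0.42), PLXNB3 (2.72 ± 0.45), SEMA6A (2.59 ± 0.46), EFNA1 (2.18 ± 0.27), SEMA3A (2.16 ± 0.37), SEMA4C (1.94 ± 0.22), SEMA4D (1.88 ± 0.27) and PLXNB1 (1.74 ± 0.30) rose most. EPHA6 fell most (−5.23 ± 0.46), and no white matter library exceeded 3.94 CPM, against 43.9 to 76.8 CPM in hippocampus. EPHA7 (−3.66 ± 0.60), SLIT3 (−3.08 ± 0.52), UNC5A (−2.85 ± 0.58), EPHA10 (−2.83 ± 0.63), NRP1 (−2.79 ± 0.29), EPHA4 (−2.77 ± 0.49) and SEMA6B (−2.61 ± 0.42) followed. Without control white matter replicates 1 and 3 the counts were 20 higher and 28 lower (59.8% of all genes), among them all 42 members called with them. Falls were larger without those libraries, at −7.0 for EPHA6, −5.28 for EPHA7 and −4.32 for UNC5A. EPHA6 and EPHA10 were too low in white matter for a test of treatment, so the sizes of their falls rest on few reads. Cell type markers also differed between the regions: pan-neuronal markers summed to 398.6 to 7128 CPM in control white matter, 6126 to 7543 in hippocampus and 7726 to 9835 in prefrontal cortex. Oligodendrocyte markers summed to 25301 to 51802, 1235 to 5629 and 547.9 to 2898 CPM in the same order. The part of these differences in the guidance genes was not tested.

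**Figure D4:**
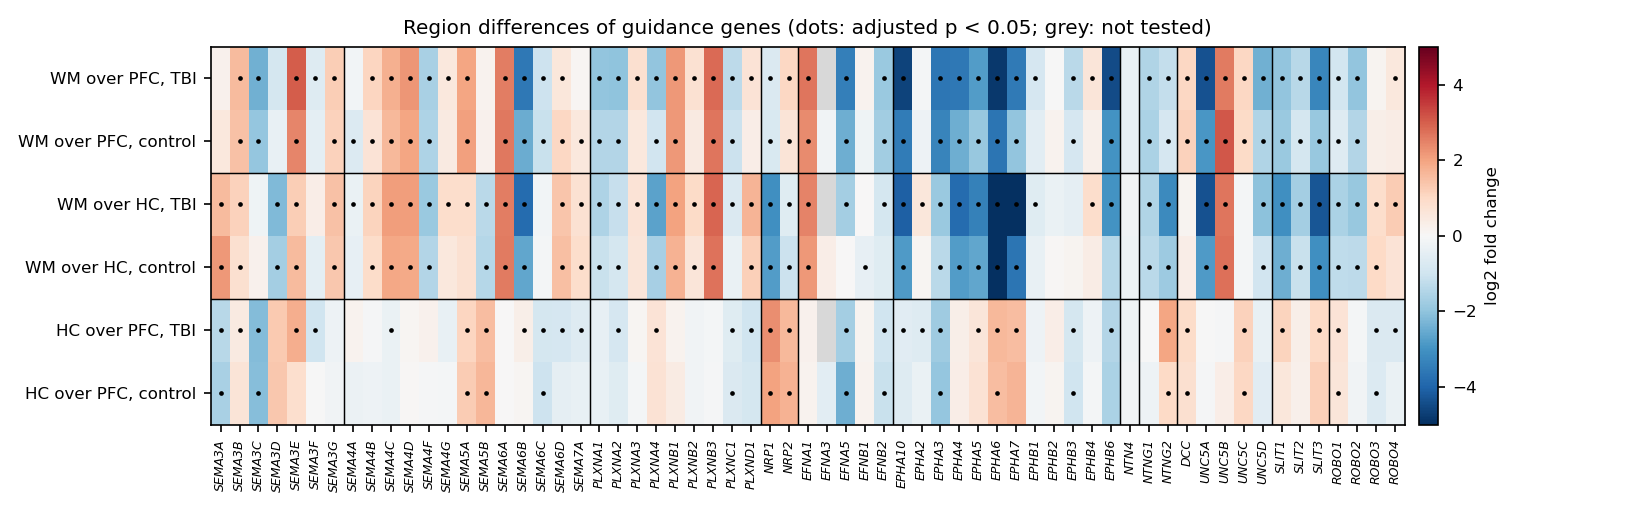
Log2 fold changes between regions (colour, limited to −5 and 5) for members tested, ordered by class with a line between classes, in TBI animals and in control animals; dots mark an adjusted p under 0.05 and grey marks a gene not tested. Columns of UNC5B, PLXNB3 and SEMA6A are red and those of EPHA6, EPHA10 and UNC5A blue in both comparisons of white matter, in TBI and in control animals. EPHA6 and EPHA10 were too low in white matter for a test of treatment, so the depth of their blue rests on few reads.

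The TBI animals, whose libraries are separate from the controls, gave the same comparisons a second time. In them 22 of 62 members were higher and 30 lower for white matter against prefrontal cortex (83.9%, against 75.2% of all genes). Hippocampus against prefrontal cortex gave 17 higher and 19 lower (58.1%, against 36.9%), and white matter against hippocampus gave 23 and 30 (85.5%, against 75.1%). Of the calls in control animals, 16 of 17 higher and 28 of 29 lower ones were called in the same direction for white matter against prefrontal cortex. All 9 higher and 9 lower ones were so for hippocampus against prefrontal cortex, and 17 of 17 higher and 24 of 25 lower ones for white matter against hippocampus. None was called in the opposite direction. How many calls over all genes repeated in this way was not counted, so the repeat cannot be read as particular to the members. UNC5B (2.61) and EPHA6 (−4.84) kept their sign in white matter against prefrontal cortex, as did NRP1 (2.32) in hippocampus against prefrontal cortex. The size of the EPHA6 fall rests on few white matter reads here too.

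A list of 23 tested genes for other guidance cues and their receptors, and one of 42 for intracellular guidance signalling, were examined beside the members in white matter after fWBI. Of the other cues 1 was higher and 5 were lower (26.1%, against 16.7% of all genes), and without control replicates 1 and 3 none was higher and 4 were lower (17.4%, against 10.8%). DSCAM, a homophilic adhesion receptor that also binds netrin, had 3.93, 4.00, 5.26, 5.46 and 4.74 CPM after fWBI and 19.5, 22.5, 17.4, 14.7 and 17.5 CPM after TBI, against 54.4, 28.6, 44.5, 27.0 and 21.6 CPM in controls. The fWBI libraries lay far below both other groups (−2.91 ± 0.24 against controls, −2.44 ± 0.16 without control replicates 1 and 3 and −1.96 ± 0.24 against TBI). LINGO1, a Nogo co-receptor that restrains myelination, fell by 2.19 on the log2 scale (SE 0.37) and FLRT3, a ligand of UNC5 receptors, by 1.11 (SE 0.20). Without control replicates 1 and 3, the 2 highest controls of each, they were at −1.26 ± 0.20 for LINGO1 and −0.80 ± 0.19 for FLRT3, both still called. KDR, the main receptor of vascular endothelial growth factor, rose (0.64 ± 0.18) but was not called without control replicates 1 and 3 (0.63 ± 0.21, adjusted p = 0.074).

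Of the intracellular genes 2 were higher and 7 lower (21.4%, against 16.7% of all genes), and without control replicates 1 and 3 the counts were 2 and 2 (9.52%, against 10.8%). MICAL1, an actin-oxidising enzyme downstream of plexins, had 32.4, 59.2, 48.0, 60.6 and 26.1 CPM after fWBI and 16.1, 13.3, 14.5, 20.3 and 15.5 CPM after TBI, against 18.9, 13.2, 11.2, 11.3 and 11.1 CPM in controls. No fWBI library overlapped either other group (1.78 ± 0.24 against controls, adjusted p = 0.00011; 1.51 ± 0.23 against TBI). LIMK2, a kinase that inactivates cofilin, rose by 0.65 ± 0.16. CHN1 (−1.91 ± 0.57), MICAL2 (−1.71 ± 0.56) and CRMP1 (−1.22 ± 0.30) fell, but none of them was called without control replicates 1 and 3, where CHN1 was at −0.04, MICAL2 at 0.06 and CRMP1 at −0.57 (adjusted p = 0.072). In hippocampus, in prefrontal cortex and after TBI edgeR called no gene of either list, while 0 to 14 of a list had an unadjusted p under 0.05. DESeq2 calls were not counted for these lists.

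Some members were too low to test. EPHA8 had 0 to 9 counts in any library and entered no test. EFNA5 (1 to 49 counts), EPHA10 (0 to 13) and EPHA6 (3 to 38) were not tested between treatments in white matter, and EFNA3 (2 to 18) not in hippocampus. In white matter they reached at most 5, 2 and 7 counts after fWBI and 8, 3 and 8 after TBI, against 49, 13 and 38 in controls, and the highest CPM of each came from control replicate 1 or 3. EPHA6 was at 0.281 to 0.592 CPM after fWBI, against 3.94 and 3.78 CPM in control replicates 1 and 3 and 0.368 to 0.54 CPM in the other 3 controls.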

How the data were processed

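The deposited values are raw counts of reads per gene, in 1 table covering 45 libraries (3 regions of 15 macaques), whole numbers with a different total per library. Per the labels' protocols, ribosomal RNA was depleted and libraries were made with a strand-preserving kit for total RNA, from RNA with integrity numbers of 7.1 to 9.3. FastQC, STAR, featureCounts and DESeq2 are named in the submitters' processing notes; for versions, genome build, annotation and strand setting, values were not given in the sources used here. If strand was not used, reads of an antisense gene cannot be told apart from those of its partner. Symbols were looked up by gene ID in a reference table, in which 15769 IDs had one. Members matched a symbol pattern; 70 symbols did so in that table and 64 were in the count table. Groups and replicate numbers came from sample titles.

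Counts were tested with edgeR 4.0.16 (R 4.3.3): TMM scaling, filterByExpr, robust quasi-likelihood fits, 2-sided, Benjamini-Hochberg adjustment over all genes tested, threshold 0.05. Treatments were compared within a region over its 15 libraries without a block, regions within the 5 control animals with the animal as a block, and differences of effects over all 45 libraries with the animal as a block. The SE of a log2 fold change is its size over the square root of F. Log2 CPM, used to screen for outlying libraries, had a prior count of 2. Alternatives were DESeq2 1.42.0, its size factors, no filter, only the 2 groups compared, and the block added or removed. Others left out single animals or control white matter replicates 1 and 3, or used TBI animals for region comparisons. On counts simulated from these libraries, 67 of 100 genes changed 2-fold and 94 of 100 changed 4-fold were recovered for fWBI against control in white matter. Changes were planted only in genes above a floor of mean counts, and all libraries were drawn around a common mean per gene. The recovery therefore does not cover members at low counts or the joint shift of control white matter replicates 1 and 3.

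Libraries of 1 animal share that animal: deviations of an animal's libraries from 2 regions had a median r of 0.31 over 45 pairs, across genes. Replicate numbers of different treatment groups are different animals, so they pair nothing (median r 0.02). No 2 libraries of a group agreed within sampling noise. Libraries of a group are separate animals, so p-values between treatments measure the spread between animals. Comparisons of regions and of effects had the animal as a block. Their p-values measure the spread left once differences between animals are removed.

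All members past the threshold were named between treatments (the 3 smallest p where fewer than 3 passed; at most 12 per direction), the 8 largest per direction between regions, the 6 largest per direction for differences of effects and up to 3 per direction from the other lists. SEMA6D, the smallest of 13 falls in white matter, was named outside that rule, after its value was seen. Members, gene lists and the libraries left out were chosen with earlier results of these data known.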

Additional observations from a re-analysis of the deposited data

Results flagged for a closer look

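In 3 of 65 groups of 5 libraries screened, 1 library stood apart from the rest of its group. Chance gives about 1 in 20. NRP2 in control white matter was highest in replicate 2, with a gap to the next library of 0.731 of the group's range on the log2 scale. SEMA3A in fWBI white matter was lowest in replicate 5 (0.918 of the range), and SEMA6D in TBI white matter was lowest in replicate 3 (0.918).

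The fWBI effect differed by test between white matter and prefrontal cortex for 13 of 63 members (9.96% of all genes). The differences of log2 fold changes were 1.41 for NRP2, 1.09 for SEMA4A, 0.94 for PLXNC1, 0.93 for EFNB1, 0.71 for PLXNB2, −0.62 for SEMA6D, −1.07 for NTNG1, −1.21 for UNC5D, −1.54 for EPHA5, −1.67 for SEMA6B, −1.69 for EPHA6, −1.70 for EPHB1 and −1.99 for EFNA5. EFNA5 and EPHA6 were too low to test in white matter and entered this fit through grey matter, so their values support no difference. Of the genes listed, only NRP2, PLXNC1, EFNB1, EPHB1, NTNG1 and SEMA6D kept the call without control white matter replicates 1 and 3. Between white matter and hippocampus the fWBI effect differed for 10 members (8.96% of all genes). The differences were 1.35 for NRP2, 1.12 for EFNB1, 0.99 for SEMA4A, 0.94 for PLXNC1, −1.18 for UNC5D, −1.34 for NTNG1, −1.47 for EPHA5, −1.59 for EPHB1, −1.72 for SEMA6B and, with the same limit, −2.72 for EFNA5. Only NRP2, EFNB1, PLXNC1, EPHB1 and NTNG1 of these kept the call without control white matter replicates 1 and 3.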

How the results depend on the processing

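Counts of members called were within 1.5 times of those reported, except as follows. Without control white matter replicates 1 and 3, fWBI against control white matter had 12 calls in place of 20, the fWBI effect in white matter minus prefrontal cortex 7 in place of 13, and minus hippocampus 6 in place of 10. EPHA6 in the first of these differences changed sign, to 0.14. DESeq2 gave 11 calls for TBI against control white matter, 1 for fWBI against TBI hippocampus, 2 for fWBI and 1 for TBI against control prefrontal cortex, and 2 for the TBI effect in white matter minus hippocampus. Fitting only the 2 groups gave 1 for fWBI against TBI hippocampus, as did no filter on low counts, and 0 for fWBI against control prefrontal cortex. With TBI animals, hippocampus against prefrontal cortex had 36 in place of 18. Leaving out single libraries gave 13 to 24 calls for fWBI against control white matter and 5 to 10 for fWBI against TBI white matter. It gave 0 to 1 for fWBI in hippocampus and in prefrontal cortex. The fits of regions and of differences of effects left out 1 animal with all its libraries. White matter against prefrontal cortex then had 41 to 51 calls, hippocampus against prefrontal cortex 12 to 20 and white matter against hippocampus 39 to 47. The differences of the fWBI effect had 6 to 16 and 6 to 15, and the TBI effect in white matter minus hippocampus 0 to 3. The cause of these moves was not tested.

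The animal number as a replicate block pairs different animals: it gave 15 calls for fWBI against control white matter (7 higher, 8 lower), where EPHA4, EPHA5, EPHB6, SEMA6B and SLIT3 missed the threshold, and 1 for TBI in prefrontal cortex, with no other count changed. Without the animal block the 9 counts of region comparisons and differences of effects stayed within 1.5 times, among them 46, 19 and 42 between regions. With depths of 6625435 to 12541507 reads, EPHA8 and, in white matter, EFNA5, EPHA6 and EPHA10 were too low for a test of treatment.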
